A study of Mus musculus with 6 samples.

Results

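The expression of 44 genes of the Myc transcription factor network and of ribosome biogenesis was followed in mouse bone marrow-derived dendritic cells given lysine. The genes were chosen by name, as rows of the deposited table of 55740 gene models. Of the 44, 8 encode the Myc network and 36 encode proteins that make ribosomes. The cells, antigen-presenting cells cultured from the marrow of C57BL/6J mice, were exposed for 6 h either to PBS alone or to lysine at 18 mM, with 3 samples in each group. No genetic change separates the groups. The sources used here do not give the culture conditions, the age of the mice or whether the samples come from separate cultures or mice. The p-values therefore set the difference between the groups only against the spread of these samples within each group, which may be technical.

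Myc is a transcription factor that binds DNA as a dimer with Max at a short sequence called the E-box. Mxd1, Mxd4, Mxi1 and Mnt compete with Myc for Max, and their dimers repress genes at the same sequence. Myc is known for raising the synthesis of ribosomes, which begins in the nucleolus with ribosomal RNA and continues with assembly of the small and the large subunit. Its genes are textbook targets of Myc, and growing or activated immune cells raise both.

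Expression is given in TPM, a share of all transcripts that is corrected for length, so levels of different genes can be compared. A gene was tested where it reached 1 TPM in at least 3 samples, which 12539 gene models and 43 of the 44 genes did. The exception was Mycn. Log2 fold changes are lysine over PBS on the log2(TPM + 1) scale with their standard error (SE), from limma fitted over all genes tested. Changes written as a number with "-fold" are instead ratios of the mean TPM of the groups. They can therefore differ in size from the fitted changes. A gene was called at a Benjamini-Hochberg (BH) adjusted p under 0.05. TPM keeps no sequencing depth, so no counting error can be given. In bulk samples, fewer cells of a type and less RNA per cell cannot be told apart.

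The 8 dendritic cell markers were uneven. Itgax was at 347 to 385 TPM, Ccr7 at 397 to 497 and Cd74 at 2735 to 4141. H2-Ab1 was at 319 to 741 TPM and H2-Aa at 301 to 707. Zbtb46 was at 6.99 to 32.85 TPM, Flt3 at 0.95 to 2.66 and Cd209a, not tested, at 0 to 0.17. Of the 7 tested markers 0 were called. Some macrophage and monocyte markers were as high as Itgax, with Itgam at 340 to 429 TPM, so these levels do not tell the cell types apart. Replicate 3 of each group stood apart in lymphocyte markers, and also had the highest Cd74. The summed level of 8 T and NK cell markers was 64.0 TPM in PBS replicate 3 against 24.0 and 27.7 in the other PBS samples. It was 34.7 TPM in lysine replicate 3 against 6.26 and 9.92 in the other lysine samples, and 1 of the 6 tested markers, Gzma, fell. Among 8 macrophage and monocyte markers 3 fell, with summed levels of 1076 to 1122 TPM in PBS and 1044 to 1060 TPM with lysine. The summed level of 8 neutrophil markers was 74.1 to 111 TPM in PBS and 33.8 to 39.8 TPM with lysine, most of it S100a8, which fell, while Elane was listed at 0 in every sample. The 6 megakaryocyte markers summed to 667 to 721 TPM in PBS and 224 to 242 TPM with lysine. That sum was carried by Pf4 and Ppbp, which both fell, while Gp9 and Gp1bb stayed below 1 TPM in every sample. Markers of mast cells and basophils, with 6 of 8 below 1 TPM in every sample, summed to 12.4 to 13.5 TPM and 4.71 to 8.07 TPM, and Cpa3 fell. Each of the B cell, erythroid, stromal and progenitor lists summed to at most 9.06 TPM in any sample, and in these lists 1 gene, Cd34, was called, as lower. Of 13 mitochondrially encoded mRNAs 6 fell. The part of these markers in the results was not tested.

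Myc fell 3.34-fold with lysine, its antagonist Mxd1 rose more than 3-fold, and the nucleolar GTPase gene Gnl3 rose 3.03-fold. Most of the ribosome biogenesis genes moved little. Of the 36, 11 fell, 4 rose and 21 did not pass, and 1 of them, Gnl3, had a fitted change of at least 1 on the log2 scale. Over all genes tested 29.3% fell, 25.8% rose and 13.9% had a change of at least that size. The 36 genes thus fell in 30.6% and rose in 11.1% of cases, a share of falls near the background and a share of rises below it. The median log2 fold change was -0.11 for the 36 and -0.05 for all genes tested. The median size of the change, without its sign, was 0.24 for the 36 and 0.41 for all genes tested. For all 43 tested genes, Myc network included, 19 (44.2%) were called against 55.1% of all genes tested, and the groups did not overlap for 23 (53.5%) against 63.4%. Without replicate 3 of both groups, 6 of the 36 rose and 12 fell.

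**Figure D1:**
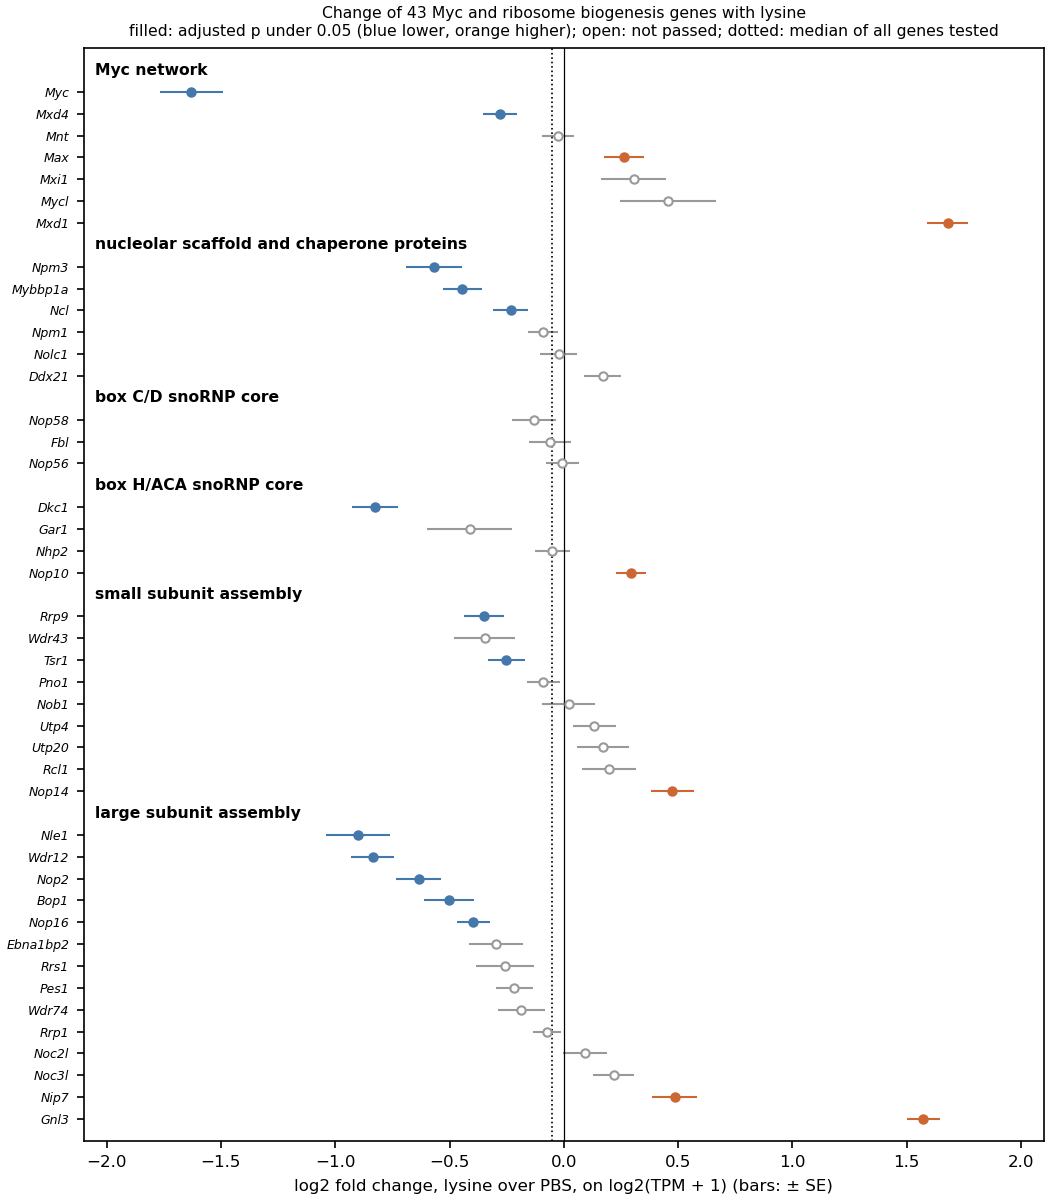
Log2 fold change with lysine (x axis, bars ± SE) of the 43 tested genes, ordered within each role. Myc at -1.63 lies far to the left, Mxd1 at 1.68 and Gnl3 at 1.57 far to the right, and the other 40 lie between -0.90 and 0.48.

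Promoter windows, from 250 bases before to 50 bases after the annotated start, were searched for the E-box core CACGTG, which reads the same on both strands. RefSeq windows of the GRCm38.p6 build matched 39 of the 44 genes by symbol. Bop1, Fbl, Myc, Npm1 and Rrs1 had no entry. The motif was present for 12 of the 39 genes (30.8%). It was present for 12.1% of the 9162 tested genes with an entry and for 8.09% of all 27025 genes with one. The 12 were Max, Mnt, Mxd4, Mybbp1a, Nle1, Nop2, Pes1, Pno1, Tsr1, Utp20, Utp4 and Wdr43. Of these, 5 fell with lysine, 1 rose and 6 did not pass. The motif was present for 5 of the 11 falling genes with an entry, 1 of 6 rising and 6 of 21 that did not pass. Of all genes tested, with or without the motif, 29.3% fell and 25.8% rose. Whether the motif goes with a fall was not tested. A match describes the letters only and shows no binding. In the stretches below, distances after the start include the start base itself. The following 60-base stretches belong to called genes and show where the motif, in capitals, lies relative to the start, each 5′ to 3′ on the strand of its gene.
Max (chr12:76962219-76962278, minus strand, motif across the start): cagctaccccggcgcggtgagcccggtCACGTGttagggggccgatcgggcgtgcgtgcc
Mxd4 (chr5:34187897-34187956, minus strand, motif 219 bases before the start): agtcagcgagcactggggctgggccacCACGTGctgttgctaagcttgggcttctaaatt
Nop2 (chr6:125131796-125131855, plus strand, motif 60 bases before the start): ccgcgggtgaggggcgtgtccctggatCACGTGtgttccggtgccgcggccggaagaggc
Nle1 (chr11:82908366-82908425, minus strand, motif 24 bases after the start): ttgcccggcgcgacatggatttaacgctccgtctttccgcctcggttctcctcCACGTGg
Tsr1 (chr11:74898050-74898109, plus strand, motif 25 bases after the start): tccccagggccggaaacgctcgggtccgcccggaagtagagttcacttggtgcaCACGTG

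The 7 tested genes of the Myc network held 2 falls and 2 rises (28.6% each). Of all genes tested 29.3% fell and 25.8% rose. Without PBS replicate 2, or without lysine replicate 2, the calls in this network numbered 2, those of Myc and Mxd1. Myc (chromosome 15, 61985391 to 61990374 in GRCm38) had 26.56, 28.43 and 35.98 TPM in PBS against 8.85, 8.05 and 10.37 TPM with lysine. Every lysine sample lay below every PBS sample. The mean went from 30.3 ± 4.99 to 9.09 ± 1.18 TPM (SD, n = 3; log2 fold change -1.63 ± 0.14, BH-adjusted p = 0.000191), and ranged from -1.72 to -1.50 when any 1 sample was left out. Both paralogues of Myc lay below it in every sample. Mycn, known from embryonic and neural cells, was listed at 0.02 to 0.07 TPM in all 6 samples and was not tested. Mycl, a paralogue used by dendritic cells, was at 1.36, 1.08 and 0.94 TPM in PBS and 2.73, 1.96 and 1.23 TPM with lysine. These groups overlapped (log2 fold change 0.46 ± 0.21, BH-adjusted p = 0.109), and Mycl was called higher without lysine replicate 3 (adjusted p = 0.0241).

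Max, the shared partner, was the most abundant of the network in both groups. It was at 52.64, 56.23 and 61.41 TPM in PBS and at 65.13, 64.97 and 74.92 TPM with lysine, just above the PBS samples. The rise was 1.20-fold (log2 fold change 0.26 ± 0.09, BH-adjusted p = 0.0384) and was not robust. It was lost in 7 of 15 alternatives, among them without PBS replicate 1 (adjusted p = 0.119) or 2 (0.0984) and without lysine replicate 1 (0.0596), 2 (0.0581) or 3 (0.0773).

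The 4 antagonists did not move together. Mxd1 (chromosome 6, 86647042 to 86669161), which replaces Myc on Max as cells stop dividing and differentiate, was at 12.68, 12.14 and 13.97 TPM in PBS and at 47.26, 43.78 and 39.88 TPM with lysine. The samples of the groups lay far apart. Its mean rose 3.38-fold, from 12.9 ± 0.94 to 43.6 ± 3.69 TPM (log2 fold change 1.68 ± 0.09, BH-adjusted p = 4.62e-05), and the call held in all 15 alternatives. Mxd4, a close relative, was at 14.2, 15.07 and 15.68 TPM in PBS and fell to 12.58, 12.16 and 11.79 TPM (log2 fold change -0.28 ± 0.07, BH-adjusted p = 0.0187). That small fall missed the threshold without PBS replicate 2 (adjusted p = 0.0602) or 3 (0.0501), without lysine replicate 2 (0.0556), and without replicate 3 of both groups (0.0642). Mxi1 was at 41.3, 40.55 and 33.32 TPM in PBS and at 54.72, 49.93 and 39.24 TPM with lysine, and replicate 3 was the lowest sample of each group. It did not pass (log2 fold change 0.31 ± 0.14, BH-adjusted p = 0.109), but was called higher without lysine replicate 3 (adjusted p = 0.0193) and without replicate 3 of both groups (0.0107). Mnt, the antagonist present in most cells, was at 18.46, 20.07 and 18.07 TPM in PBS and 18.46, 18.44 and 18.61 TPM with lysine. Its log2 fold change was -0.03, with a 95% interval of -0.19 to 0.14, and its sign turned under median-of-ratios scaling (0.02).

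The balance of transcripts within the network therefore differed between the groups. Per Myc transcript, the 4 antagonists together had 2.25 to 3.26 transcripts in the PBS samples and 10.6 to 15.4 in the lysine samples. For Mxd1 alone the ratio was 0.388 to 0.477 in PBS and 3.85 to 5.44 with lysine, so Mxd1 lay below Myc in every PBS sample and above it in every lysine sample. For Max the ratio to Myc was 1.71 to 1.98 in PBS and 7.22 to 8.07 with lysine. These ratios restate the values above and carry no test of their own.

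**Figure D2:**
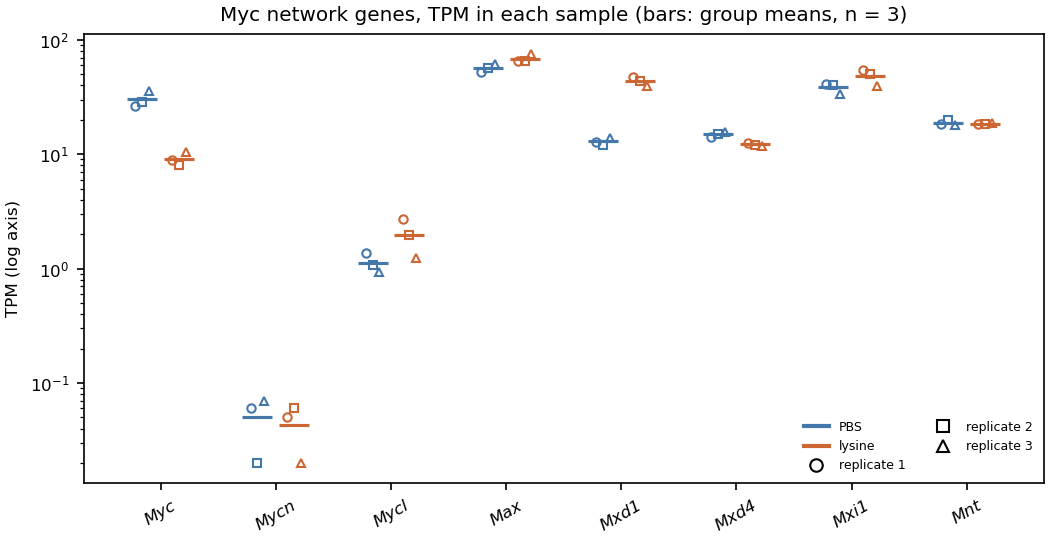
TPM of the 8 Myc network genes in each sample (log axis), with PBS in blue, lysine in orange and bars at the group means. The order of Myc and Mxd1 is exchanged between the groups, while Mnt stays near 18.5 TPM in both and Mycn lies below 0.1 TPM.

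Among 6 genes of abundant nucleolar scaffold and chaperone proteins 3 fell (50%), 0 rose and 3 did not pass. The shares over all genes tested were 29.3% lower and 25.8% higher. Mybbp1a, a nucleolar regulator of RNA polymerase I transcription, was at 42.39, 39.48 and 45.34 TPM in PBS and at 29.39, 29.46 and 33.88 TPM with lysine. It fell 1.37-fold (log2 fold change -0.44 ± 0.09, BH-adjusted p = 0.00482), with no overlap. Npm3, a histone chaperone that binds nucleophosmin, went from 28.85, 28.64 and 33.08 TPM to 19.09, 17.68 and 23.67 TPM (log2 fold change -0.57 ± 0.12, BH-adjusted p = 0.00726). Both calls held in all 15 alternatives. Ncl, which encodes nucleolin, the major protein of the nucleolus, was at 97.6, 105.99 and 96.84 TPM in PBS and at 80.75, 81.34 and 93.61 TPM with lysine. Lysine replicate 3 came close to the PBS samples, and the fall of 1.17-fold (log2 fold change -0.23 ± 0.08, BH-adjusted p = 0.0402) was lost in 8 of 15 alternatives. These included leaving out PBS replicate 1 (adjusted p = 0.0777), 2 (0.128) or 3 (0.0591) and lysine replicate 1 (0.123) or 2 (0.123).

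Npm1, which encodes nucleophosmin, had the highest level of the 44 genes, 426 ± 14.2 TPM in PBS and 401 ± 28.3 TPM with lysine. Its log2 fold change of -0.09 had a 95% interval of -0.25 to 0.06, and it was called lower after quantile normalization (-0.19, adjusted p = 0.0272). Per Npm3 transcript there were 13.4 to 14.8 of Npm1 in PBS and 18.2 to 22.5 with lysine. Nolc1, a snoRNP chaperone of the nucleolus, had a log2 fold change of -0.02. The helicase gene Ddx21 had a log2 fold change of 0.17 and was called higher without PBS replicate 3 (adjusted p = 0.0345).

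The 3 core proteins of the box C/D snoRNPs, the particles that methylate ribosomal RNA, gave no calls in any of the 15 alternatives. Their groups overlapped for each gene. Over all genes tested 55.1% were called and the groups did not overlap for 63.4%. Nop58 was at 47.02, 47.64 and 55.39 TPM in PBS and at 42.71, 43.62 and 50.65 TPM with lysine (log2 fold change -0.13, 95% interval -0.36 to 0.10, adjusted p = 0.296). Fbl, which encodes the methyltransferase fibrillarin, was at 96.18, 99.33 and 113.77 TPM in PBS and at 90.85, 97.8 and 107.53 TPM with lysine (-0.06, interval -0.28 to 0.16, adjusted p = 0.595). In both genes replicate 3 was the highest sample of its group. Nop56 was at 49.96, 56.24 and 56.06 TPM in PBS and at 55.77, 50.52 and 55.23 TPM with lysine (-0.01, interval -0.18 to 0.17, adjusted p = 0.954). The ratio of Fbl to Nop58 was 2.05 to 2.09 in PBS and slightly higher, 2.12 to 2.24, with lysine.

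The core of the box H/ACA snoRNPs, which turn uridine into pseudouridine in ribosomal RNA, did not behave as a unit. Dkc1 (chromosome X, 75095854 to 75109777), which encodes the pseudouridine synthase dyskerin, was at 8.75, 10.25 and 10.12 TPM in PBS and at 4.74, 4.92 and 5.43 TPM with lysine. It fell 1.93-fold without overlap (log2 fold change -0.83 ± 0.10, BH-adjusted p = 0.000723). Nop10, a small partner that binds dyskerin, rose from 49.57, 50.37 and 52.61 TPM to 59.04, 62.65 and 66.19 TPM (log2 fold change 0.29 ± 0.06, BH-adjusted p = 0.00788). Gar1 was at 26.42, 30.77 and 33.03 TPM in PBS and spread from 17.37 and 21.67 to 29.25 TPM with lysine, so that its replicate 3 overlapped PBS. It did not pass (log2 fold change -0.41 ± 0.19, BH-adjusted p = 0.103), but was called lower without lysine replicate 3 (adjusted p = 0.013) and without replicate 3 of both groups (0.0286). Nhp2 had a log2 fold change of -0.05 (95% interval -0.23 to 0.13), whose sign turned without PBS replicate 3 (0.01). Dkc1 was the scarcest of the 4 transcripts in every sample. Per Dkc1 transcript there were 4.91 to 5.67 of Nop10 in PBS and 12.2 to 12.7 with lysine. The exons of Dkc1 overlap those of Mpp1 on the opposite strand, which fell alongside, from 83.0 to 48.1 TPM (log2 fold change -0.78, BH-adjusted p = 9.63e-05). The sources used here do not say whether the counting used strand, so reads of the 2 genes cannot be told apart where they overlap.

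For assembly of the small subunit, 2 of 9 genes fell (22.2%), 1 rose (11.1%) and 6 did not pass. Of all genes tested 29.3% fell and 25.8% rose. Nop14, a component of the early processome, was at 22.32, 23.63 and 21.23 TPM in PBS and rose to 32.45, 34.37 and 27.97 TPM (log2 fold change 0.47 ± 0.09, BH-adjusted p = 0.00527). Rrp9, a protein of the U3 snoRNP that guides the first cleavages, went from 25.11, 22.79 and 24.65 TPM to 17.0, 18.98 and 20.39 TPM (log2 fold change -0.35 ± 0.09, BH-adjusted p = 0.014). Its opposite-strand neighbour Parp3, with overlapping exons, fell from 34.1 to 11.7 TPM (log2 fold change -1.47). Tsr1, a factor of late cytoplasmic maturation, was at 17.94, 19.14 and 18.51 TPM in PBS and at 14.17, 16.65 and 15.5 TPM with lysine (log2 fold change -0.25 ± 0.08, BH-adjusted p = 0.0373).

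Neither fall in the small subunit class was called without PBS replicate 1 (adjusted p = 0.0517 for Rrp9 and 0.0707 for Tsr1). The Tsr1 call was also lost without PBS replicate 2 (0.113) or 3 (0.0762) and without lysine replicate 1 (0.112) or 3 (0.0624). Wdr43, of the UTP-A complex that starts the processome, had groups that did not overlap but did not pass (log2 fold change -0.35 ± 0.13, BH-adjusted p = 0.0641). It was called lower without lysine replicate 2 (adjusted p = 0.0354). The remaining processome genes Utp4, Utp20 and Rcl1 had log2 fold changes of 0.13, 0.17 and 0.20, with overlapping groups. Nob1, which makes the last cut of 18S ribosomal RNA, and its partner Pno1 had 0.02 and -0.09.

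Among the ribosome biogenesis classes, the 14 genes of large subunit assembly held the widest range, with 5 falls, 2 rises and 7 that did not pass. The falls made up 35.7% and the rises 14.3%, against 29.3% and 25.8% of all genes tested. Gnl3 (chromosome 14, 31012433 to 31019152), which encodes nucleostemin, a GTPase of the nucleolus also known from stem cells, was at 42.73, 44.02 and 41.3 TPM in PBS and at 138.25, 131.1 and 118.04 TPM with lysine. Its mean rose from 42.7 ± 1.36 to 129 ± 10.2 TPM (log2 fold change 1.57 ± 0.07, BH-adjusted p = 2.93e-05). With lysine it was the second most abundant of the 44 transcripts, after Npm1. The call held in all 15 alternatives, with log2 fold changes of 1.52 to 1.63. Its opposite-strand neighbour Pbrm1 has overlapping exons and fell, from 12.9 to 10.4 TPM (log2 fold change -0.28, BH-adjusted p = 0.0264).

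Nip7, which acts in processing of ribosomal RNA, rose as well, from 37.98, 36.58 and 41.83 TPM to 49.22, 53.39 and 61.95 TPM (log2 fold change 0.48 ± 0.10, BH-adjusted p = 0.00639). Against these, Wdr12 (chromosome 1, 60069785 to 60098645) fell from 9.59, 10.43 and 10.18 TPM to 5.19, 4.74 and 5.69 TPM, a 1.93-fold change without overlap (log2 fold change -0.84 ± 0.09, BH-adjusted p = 0.000564). Nop2, a methyltransferase of 28S ribosomal RNA, went from 22.41, 22.64 and 27.34 TPM to 15.7, 14.21 and 15.48 TPM (log2 fold change -0.64 ± 0.10, BH-adjusted p = 0.00189). Nle1, which helps release factors from the maturing subunit, was at 11.84, 11.29 and 16.02 TPM in PBS and at 6.02, 6.54 and 6.83 TPM with lysine (log2 fold change -0.90 ± 0.14, BH-adjusted p = 0.002). Bop1 and Nop16 fell by 0.50 and 0.40 on the log2 scale, the former beside a rise of its opposite-strand neighbour Mroh1 (0.32, adjusted p = 0.035). All 7 of these calls in the class held in the 15 alternatives.

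Pes1, Bop1 and Wdr12 encode the 3 subunits of the PeBoW complex, which is required for large subunit RNA processing. Wdr12 and Bop1 fell, whereas Pes1 missed the threshold with groups that did not overlap (52.05, 50.77 and 53.7 against 43.37, 41.36 and 49.98 TPM; log2 fold change -0.22 ± 0.08, BH-adjusted p = 0.0618). Pes1 was called lower without lysine replicate 3 (adjusted p = 0.00843) and without replicate 3 of both groups (0.012). Wdr12 was the scarcest of the 3, with 0.184 to 0.205 transcripts per Pes1 transcript in PBS and 0.114 to 0.120 with lysine. Among the rest, Ebna1bp2 (-0.30), Rrs1 (-0.26), Wdr74 (-0.19), Rrp1 (-0.07), Noc2l (0.09) and Noc3l (0.22) did not pass, given as log2 fold changes. Ebna1bp2 was called lower without PBS replicate 2 (adjusted p = 0.0439) or lysine replicate 3 (0.039), and Noc3l was called higher without replicate 3 of both groups (0.0426).

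**Figure D3:**
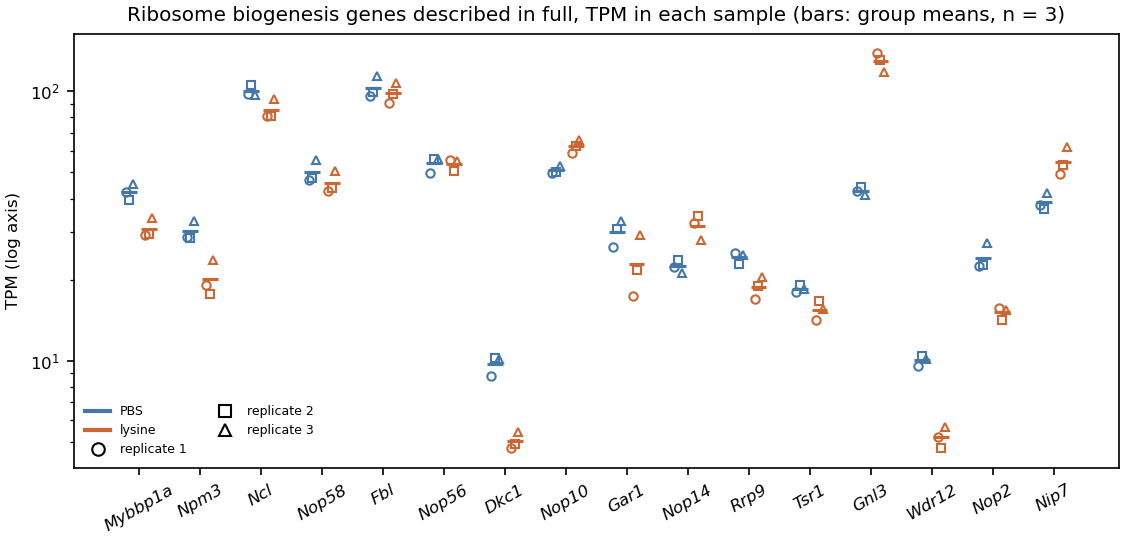
TPM in each sample (log axis) of 16 ribosome biogenesis genes, chosen in each role class by the smallest adjusted p or by a call against most of the class, PBS in blue and lysine in orange, bars at group means. Gnl3 rises from 42.7 to 129 TPM, Dkc1 and Wdr12 drop to about 5 TPM, and the box C/D genes Nop58, Fbl and Nop56 overlap between groups.

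The summed level of the 36 genes was 1750, 1778 and 1879 TPM in the PBS samples and 1698, 1741 and 1854 TPM in the lysine samples, so the groups overlapped. In both groups replicate 3, which also had the highest T and NK cell marker level, had the highest sum. Replicate 3 was the highest PBS sample for 20 of the 36 genes (55.6%) and the highest lysine sample for 22 (61.1%), against 49.8% and 45.4% of all genes tested. By class, the sum of the nucleolar scaffold genes was 638 to 684 TPM in PBS and 569 to 644 TPM with lysine. The sum of the large subunit genes was 504 to 542 TPM in PBS and 545 to 571 TPM with lysine. Without Gnl3 the direction turned, with 460 to 501 TPM in PBS and 409 to 453 TPM with lysine. Across the 36 genes, which share the same 6 libraries, the change did not follow the level in PBS (Pearson r = 0.16, Spearman rho = 0.14, as a description). The spread between replicates had a median coefficient of variation over the 43 tested genes of 7.27% in PBS and 8.52% with lysine. The largest was 19.8% in PBS, for Nle1, and 38.0% with lysine, for Mycl.

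Several of the genes carry snoRNAs, the guide RNAs of the snoRNPs, in their introns. The GENCODE M21 annotation of GRCm38 places 21 snoRNA models within 7 of the genes on the same strand, in Ncl, Nop56, Nop58, Dkc1, Wdr43, Tsr1 and Gnl3. All 20 of these models in the deposited table were listed at 0 in every sample, so these data do not describe them. Exons of 11 of the 44 genes overlap an expressed protein-coding gene on the opposite strand. For Mybbp1a this was Spns2, which fell (log2 fold change -1.33), for Pno1 it was Wdr92, which rose (0.49), and for Noc2l it was Samd11, which rose (1.95).

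The wider pathway was read from lists of genes that hold none of the 44. Of 50 other factors of small subunit assembly 10 rose (20%), 14 fell (28%) and 26 did not pass, at a median log2 fold change of -0.09. Of all genes tested 25.8% rose and 29.3% fell. Tbl3, of the UTP-B complex, fell most, from 15.6 ± 0.345 to 3.85 ± 1.02 TPM (log2 fold change -1.80 ± 0.15, BH-adjusted p = 0.000178), and the helicase gene Ddx49 fell from 23.9 ± 1.10 to 12.0 ± 0.756 TPM. Riok3, a kinase of late maturation, rose from 150.5 ± 6.5 to 293 ± 15.5 TPM (log2 fold change 0.96 ± 0.06, BH-adjusted p = 7.37e-05), and the helicase gene Ddx47 from 38.8 ± 1.76 to 61.5 ± 3.32 TPM.

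Of 50 other factors of large subunit assembly 9 rose (18%), 17 fell (34%) and 24 did not pass (median -0.08). The helicase gene Ddx56 fell from 22.9 ± 1.66 to 8.97 ± 1.30 TPM (log2 fold change -1.27 ± 0.11, BH-adjusted p = 0.000233) and Pak1ip1 from 48.7 ± 2.74 to 30.6 ± 1.98 TPM. Sbds, which frees the finished large subunit for translation, rose from 83.0 ± 1.34 to 133 ± 7.29 TPM, and Rbm28 from 20.9 ± 1.47 to 29.8 ± 1.72 TPM. Of 10 snoRNP assembly factors 1 rose (10%) and 5 fell (50%), against 25.8% and 29.3% of all genes tested. The rise was Nufip1, a scaffold of box C/D assembly (6.38 ± 0.265 to 14.4 ± 0.363 TPM), and the falls included the ATPase gene Ruvbl2 (31.6 ± 0.982 to 16.8 ± 3.24 TPM) and Znhit3 (10.1 ± 0.999 to 5.66 ± 0.685 TPM).

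Among 7 transcription factors of RNA polymerase I, which makes the large ribosomal RNA, 3 rose (42.9%) and 0 fell. These were Taf1a (0.52) and Taf1d (0.63), subunits of the promoter factor SL1, and Rrn3 (0.30), given as log2 fold changes. The Rrn3 call was lost without PBS replicate 1 (adjusted p = 0.0637) or 2 (0.0527) or lysine replicate 1 (0.065) or 2 (0.0581). Their abundant partner Ubtf had a log2 fold change of 0.01. Over these 4 lists of ribosome biogenesis together, 23 of 117 genes rose (19.7%) and 36 fell (30.8%), and 3 had a change of at least 1 on the log2 scale (2.56%). Over all genes tested the corresponding shares were 25.8%, 29.3% and 13.9%, so the share of falls was near the background.

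Around Myc itself, 3 of 5 other network genes were tested. Mlx, the partner of the Mondo proteins, fell (log2 fold change -0.39 ± 0.10). Mlxip, which encodes the glucose-responsive factor MondoA (0.31 ± 0.09), and Mga, a repressor that binds Max (0.49 ± 0.14), rose, though both were sensitive to single samples. Mga was lost without PBS replicate 1 (adjusted p = 0.0717) or 3 (0.0617) or lysine replicate 1 (0.0521) or 2 (0.0686), and Mlxip without PBS replicate 1 (0.0612) or lysine replicate 1 (0.0616), 2 (0.0581) or 3 (0.0652). Of 10 genes of Myc protein turnover and cofactors 3 rose (30%) and 1 fell (10%), against 25.8% and 29.3% of all genes tested. Zbtb17, which encodes the Myc cofactor Miz1, rose from 17.6 ± 1.15 to 38.0 ± 0.982 TPM. Usp36, a nucleolar deubiquitinase that stabilizes Myc, rose from 5.82 ± 0.635 to 12.8 ± 0.321 TPM.

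Textbook Myc targets outside ribosome biogenesis went both ways, with 8 of 20 lower, 4 higher and 8 not passed (median log2 fold change -0.23). The shares were 40% lower and 20% higher, against 29.3% and 25.8% of all genes tested. Ifrd2 fell most (9.42 ± 1.29 to 3.54 ± 0.171 TPM, log2 fold change -1.19 ± 0.12, BH-adjusted p = 0.000299). Against the fall of Myc, Eif4e, which encodes the cap-binding translation factor, rose from 75.5 ± 5.62 to 157 ± 15.5 TPM (log2 fold change 1.04 ± 0.09, BH-adjusted p = 0.000215). Odc1, a polyamine enzyme gene, also rose (1.94 ± 0.06). The cause of these rises was not tested.

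**Figure D4:**
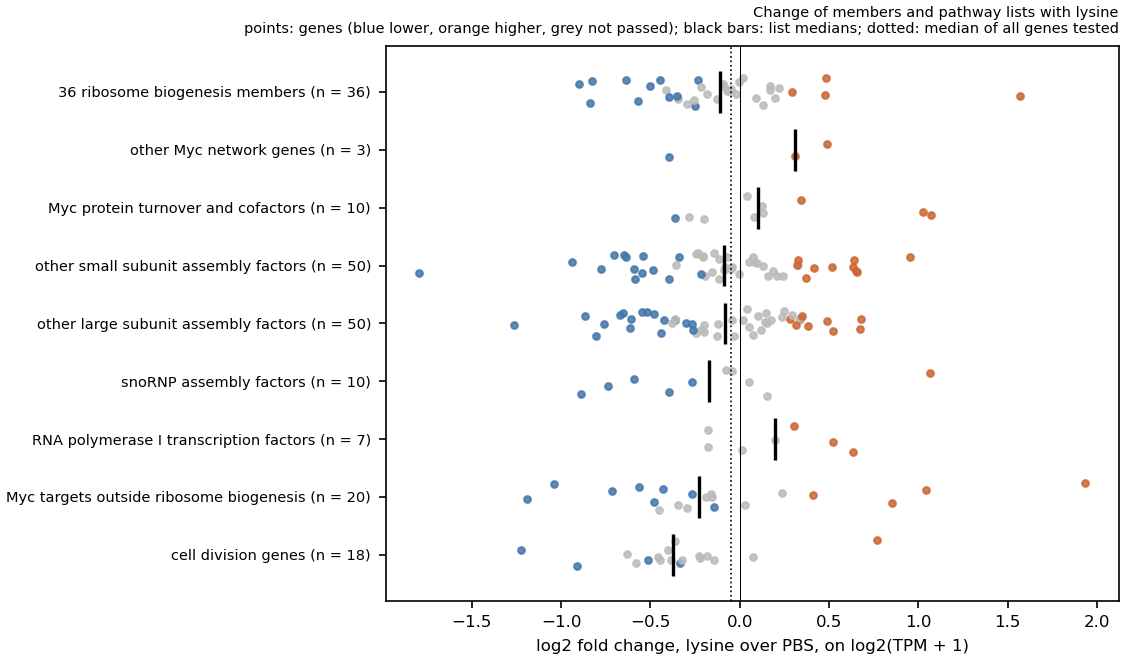
Log2 fold change with lysine (x axis) of each tested gene in the 36 ribosome biogenesis genes and in 8 further lists, coloured by call, with black bars at the list medians. The medians of the ribosome assembly lists lie between -0.17 and -0.08, near the dotted median of all genes tested at -0.05, and each list except the RNA polymerase I factors holds called genes on both sides of 0.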

How the data were processed

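Per the series' design text, the authors quantified RNA sequencing libraries with RSEM and deposited TPM, with 2 decimals, 1 column per sample. Per the submitters' processing notes, HISAT2, StringTie, RSEM and edgeR were among the tools and GRCm38.p6 was the build, with no roles stated. The annotation release and strand handling are not given here. Columns named control, and columns named K (taken as the amino acid code of lysine), were matched to samples by replicate number. Lysine was compared with PBS by limma 3.58.1 with an intensity trend in R 4.3.3 on log2(TPM + 1), keeping genes that reached 1 TPM in 3 or more samples, with Benjamini-Hochberg adjustment over all of them. The depth is unknown. The test was also run on simulated data with independent samples and few changed genes. That setting differs from these data, where 55.1% of genes tested were called, so it does not vouch for the calls here.

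All 44 genes are named. Values in every sample are given for the Myc network and, in each role class, for the 3 genes with the smallest adjusted p and any called against most of its class. From each pathway list, the 3 called genes with the smallest adjusted p and up to 2 called against the majority are named. Some genes these rules select are not reported here. Genes named outside these rules were picked with their values known. The members, lists and rules were chosen with earlier results of these data known. The alternatives left out each sample in turn with the tested genes kept, dropped the trend, scaled by median of ratios, by quantiles or to nuclear protein-coding genes, filtered at 5 TPM or only at values above 0, set the pseudocount to 0.1, or added the replicate number as a block. Leaving out replicate 3 of both groups was added after seeing the data.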

Additional observations from a re-analysis of the deposited data

How the results depend on the processing

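Of the 19 called genes, 14 kept their call in all 15 alternatives, and Max, Mxd4, Ncl, Rrp9 and Tsr1 lost it in at least 1. Of 24 that did not pass, 10 were called in at least 1. Calls among the 36 ribosome biogenesis genes numbered 12 to 19 against 15. Calls in the Myc network numbered 2 to 5 with a sample left out, against 4, with 1 to 3 higher and 1 to 2 lower, each against 2. The network had 1 rise when genes were filtered only at values above 0, 1 rise without the trend, and 1 fall without replicate 3 of both groups. With the replicate number as a block, 19 of the 36 and 5 of the network were called, with Mxi1 newly higher (adjusted p = 0.0104) and Wdr43 (0.00953), Gar1 (0.02), Pes1 (0.0342) and Wdr74 (0.0475) newly lower. Deviations of samples with the same number correlated at 0.171, 0.092 and 0.245, and each of 3 PBS samples correlated best with its own number. Signs of log2 fold changes turned for 6 genes, none of them called in any setting. Median-of-ratios scaling gave Mnt 0.022, Nolc1 0.026 and Nop56 0.043. With 1 sample left out, values ranged from -0.054 to 0.018 for Mnt, -0.089 to 0.044 for Nolc1, -0.124 to 0.011 for Fbl, -0.061 to 0.039 for Nop56, -0.103 to 0.014 for Nhp2 and -0.085 to 0.131 for Nob1. Without replicate 3 of both groups the values were 0.048 for Nolc1, 0.0019 for Nop56 and -0.076 for Nob1. The cause was not tested. TPM keeps no depth, so what depth limits cannot be given.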

Other observations

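Cell division genes, which often move with ribosome synthesis, were called in few cases. The 18 tested genes held 4 falls and 1 rise, and 16 of the 18 log2 fold changes were negative, with -0.37 as their median. The falls made up 22.2% of the list against 29.3% of all genes tested, of which 53.8% had a negative log2 fold change. Cdk1, the kinase that drives mitosis, fell from 14.9 ± 1.89 to 5.98 ± 1.95 TPM (log2 fold change -1.23 ± 0.23, BH-adjusted p = 0.00398). The replication factor genes Mcm6 and Pcna fell by 0.51 and 0.33 on the log2 scale. Mki67, a marker of dividing cells, went the other way, from 7.21 ± 0.891 to 13.4 ± 4.28 TPM (adjusted p = 0.0316). The Mki67 call was lost without PBS replicate 1 (adjusted p = 0.0555), 2 (0.073) or 3 (0.0918) and without lysine replicate 1 (0.0939) or 2 (0.0965). Replicate 3 had the highest summed level of these genes in each group, 394 TPM in PBS and 275 TPM with lysine, as it had for T and NK cell markers. Most of these sums was Pcna, at 215 and 153 TPM. Mki67, by contrast, was lowest in replicate 3 of each group, at 6.27 TPM in PBS and 8.5 TPM with lysine. The part of T and NK cells in these values was not tested.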
